A study of Mus musculus with 4 samples.

Results

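Glycolysis was examined through 10 genes of the pathway, namely Hk1, Hk2, Pfkfb3, Pfkl, Aldoa, Gapdh, Pgk1, Eno1, Pkm and Ldha. All 10 were found by symbol among the 24346 genes of the deposited table. The libraries come from endothelial cells, which line blood vessels, taken from hearts of young C57BL/6 mice by cell sorting and labelled as freshly isolated. There were 2 libraries labelled ECp53KO (ECp53KO_170 and ECp53KO_172) and 2 labelled Ctrl (Ctrl_178 and Ctrl_182), of wild-type genotype. The labels do not spell out ECp53KO, which is taken here to mean endothelium lacking p53. The labels name neither the Cre driver nor the deleted exons, and do not say that each library is a separate mouse, so p-values measure only the spread between these libraries. Levels are FPKM as the authors deposited them, that is, fragments scaled to transcript length and library size, so levels of different genes can be set side by side. Pairs of values are given in the order ECp53KO_170 and ECp53KO_172, then Ctrl_178 and Ctrl_182.

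Glycolysis splits glucose into pyruvate in the cytosol and yields ATP without oxygen. Endothelial cells are known to rely on it heavily although they face oxygenated blood, and the regulator PFKFB3 is known for its part in vessel sprouting. The transcription factor p53 is known to restrain glucose use in several cell types, among other routes through the phosphatase gene Tigar, and hypoxia-inducible factors and MYC are known activators of many genes of the pathway. The comparison asks whether transcripts of the pathway differ between endothelium with and without p53.

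Trp53, the gene for p53, measured 4.41 and 2.45 FPKM in the ECp53KO pair against 52.1 and 28.8 in the Ctrl pair, so that both libraries labelled ECp53KO were far below both controls. The difference was -3.20 ± 0.36 (SE) in log2 units, at an adjusted p of 0.146 from limma, and passed in 4 of 12 alternative analyses. All 15 fixed endothelial markers passed the filter on low values and summed to between 7097 and 7265 FPKM per library, with Cdh5 (VE-cadherin) at 958 to 1098 FPKM. Cardiomyocyte markers summed to 535 FPKM in ECp53KO_170 and to 307 to 331 in the others. Ryr2 and Ttn were lowest, below 0.13 FPKM everywhere, and Myl2 was highest, at 66.0 to 145 FPKM. Erythroid markers summed to 457 FPKM in ECp53KO_170 and to 95.7, 64.5 and 37.4 FPKM in ECp53KO_172, Ctrl_178 and Ctrl_182. Pericyte and smooth muscle markers summed to 188 and 153 FPKM in ECp53KO and 102 and 121 in Ctrl. Of the tested markers, 11 of 13 for cardiomyocytes, 6 of 6 for erythroid cells and 10 of 10 for pericytes and smooth muscle (8 with libraries scaled to the same sum) had positive fold changes. Without ECp53KO_170 the counts were 7 of 13, 6 of 6 and 8 of 10. The median log2 fold change of the cardiomyocyte markers was then 0.04 in place of 0.37. Fibroblast markers summed to 31.5 to 35.02 FPKM. Leukocyte markers summed to 11.1 to 17.0 FPKM, with Cd3e and Nkg7 at 0 in all 4 libraries. S100a9, the highest of them on average, was at 0.885 to 4.54 FPKM. The part of these other cells in the results below was not tested, and in bulk RNA fewer cells of a type cannot be told apart from less RNA per cell.

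The bases before the start of 3 genes are shown. Ldha and Pfkl were chosen as the genes with the largest differences, and Pgk1 as another gene whose window holds the motif searched for. No result rests on these sequences. Sequences are RefSeq's for GRCm38.p6, 5′ to 3′ on the strand of the gene, with each ACGTG, on either strand, in capitals. ACGTG is the core bound by hypoxia-inducible factors, and CACGTG, which holds it on both strands, is the E-box bound by MYC and USF proteins. The windows lie at chr7:46845554-46845803 (plus strand) for Ldha, chrX:106186850-106187099 (plus) for Pgk1 and chr10:78009808-78010004 (minus) for Pfkl, the last shortened to 197 bases where GENCODE places an exon of a longer transcript. The Ldha window lies before an inner RefSeq start, within the annotated span of the gene.
Ldha: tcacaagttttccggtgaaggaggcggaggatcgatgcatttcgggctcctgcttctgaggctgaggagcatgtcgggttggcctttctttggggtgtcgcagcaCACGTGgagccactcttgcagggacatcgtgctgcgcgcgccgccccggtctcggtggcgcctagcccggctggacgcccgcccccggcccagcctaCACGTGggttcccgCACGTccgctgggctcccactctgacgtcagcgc
Pgk1: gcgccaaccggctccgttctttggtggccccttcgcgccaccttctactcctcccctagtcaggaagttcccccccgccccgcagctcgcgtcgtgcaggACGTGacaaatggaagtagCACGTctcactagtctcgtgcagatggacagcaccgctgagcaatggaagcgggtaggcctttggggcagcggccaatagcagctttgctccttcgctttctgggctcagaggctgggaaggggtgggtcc
Pfkl: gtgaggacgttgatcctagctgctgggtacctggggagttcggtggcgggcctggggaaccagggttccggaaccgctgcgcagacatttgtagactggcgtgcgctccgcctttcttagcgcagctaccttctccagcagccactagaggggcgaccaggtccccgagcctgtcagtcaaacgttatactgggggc
The Ldha window holds 3 such places, 2 of them full CACGTG, the Pgk1 window holds 2, and the Pfkl window holds 0. The window before another RefSeq start of Ldha, at chr7:46846832-46847081 and not shown, also holds 0. Over the 250 bases before each start, 6 of the 10 genes had ACGTG before at least 1 of their RefSeq starts (8 of 18 starts, 44.4%), against 16.6% of all 32851 starts. The p53 half-site consensus was found before 0 of the 18 starts, and before 7.13% of all starts. These letter matches are descriptions of the windows and not bound sites.

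Transcripts of the pathway spanned from near 0 to over 300 FPKM, and 4 of the 10 were at or above 100 FPKM in every library. Averaged over all 4 libraries, Ldha (302 FPKM) and Aldoa (297) stood highest, with ranges that overlapped each other. Pkm (160) and Gapdh (149) followed, also overlapping, and lay below every value of the first pair. Eno1 (63.4) and Pgk1 (60.4) overlapped as well. Hk1 (40.3), Pfkl (24.7), Pfkfb3 (10.3) and Hk2 (0.153) came next, each below every library's value of the one before. The 6 genes from aldolase onward therefore all stood above the hexokinase and phosphofructokinase genes, in both groups.

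**Figure D1:**
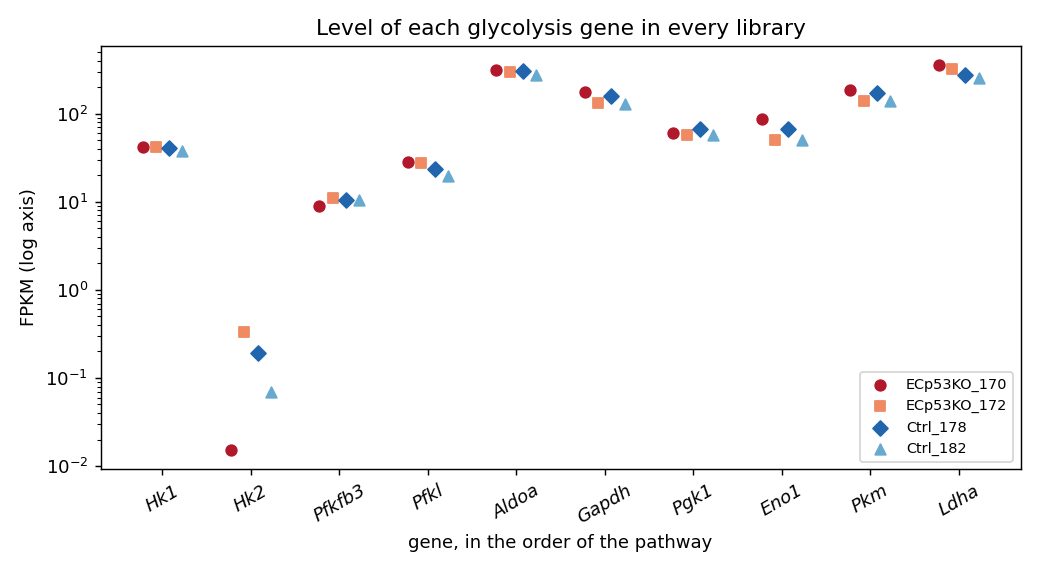
FPKM of the 10 genes (log axis) in the 4 libraries, in pathway order, with colours and symbols for libraries. The 2 groups lie close together for every gene except Hk2, whose values are spread between 0.0153 and 0.335 FPKM.

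None of the glycolysis genes passed the test between ECp53KO and Ctrl. With log2(FPKM + 1) in limma over the 11332 genes that averaged 1 FPKM or more, 9 of the 10 genes were tested, and 0 had an adjusted p under 0.05, where 0.115% of all tested genes did (0.0265% higher and 0.0882% lower). At an unadjusted p under 0.05 the count was also 0, against 4.78% of all tested genes (1.97% higher and 2.82% lower). Of the 9, 7 had a positive and 2 a negative fold change, but 3 were positive once each library was scaled to the same sum. The median was 0.09 on the log2 scale, beside 0.01 over all tested genes, of which 51.7% were positive. Summed over all 10 genes, the libraries held 1254 and 1083 FPKM with ECp53KO and 1115 and 977 with Ctrl, which overlap. The groups did not overlap in 3 of the 9, where 35.9% of all tested genes had no overlap. All 3 were higher in ECp53KO (19.1% of all tested genes were), and 0 were lower in this way (16.8% of all). The 95% intervals of the fold changes reached from 0.650 to 1.95 fold over the 9 genes and from 0.699 to 1.78 fold without Eno1. With 2 libraries a group, differences within a gene's own interval were not excluded. The intervals are not adjusted for the number of genes tested.

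**Figure D2:**
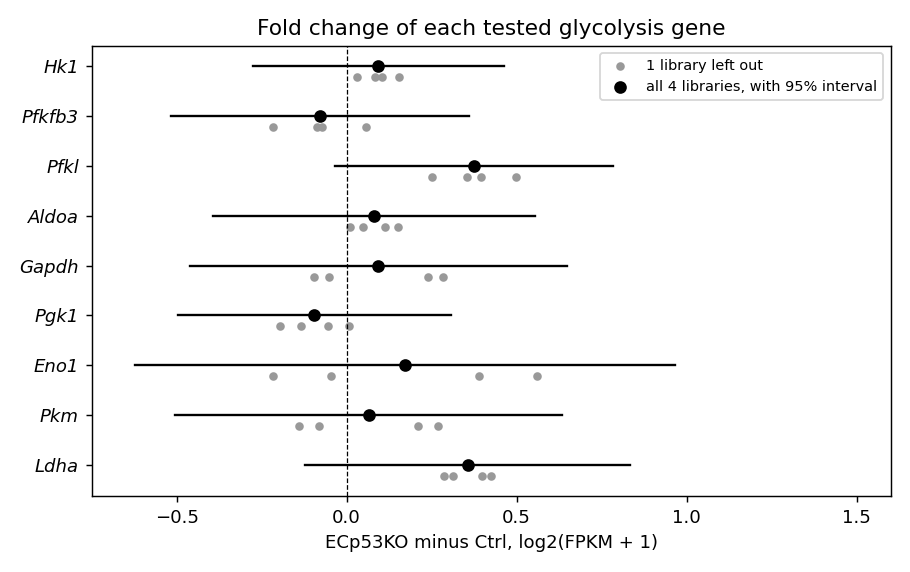
Log2 fold change, ECp53KO minus Ctrl, on the log2(FPKM + 1) scale for the 9 tested genes, with the 95% interval from limma over all 4 libraries (black) and the value with each library left out in turn (grey). Every interval includes 0, and Pfkl and Ldha lie farthest to the right.

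Hexokinases trap glucose in the cell by phosphorylation. Hk1, the widely expressed form (chromosome 10, 62268855 to 62379920 on GRCm38), measured 41.4 and 42.0 FPKM with ECp53KO and 40.7 and 37.3 with Ctrl. Both ECp53KO values were above both controls by a margin smaller than the gap between the controls. The log2 fold change was 0.09 ± 0.15 (SE; limma adjusted p = 0.912). Hk2, the form known for induction by insulin and in tumours (chromosome 6, 82725025 to 82774454), was listed at 0.0153 and 0.335 FPKM with ECp53KO, 0.192 and 0.0700 with Ctrl. These levels correspond to an estimated 0.966, 18.1, 11.6 and 8.67 fragments in the same order, from the estimated depth, which is least certain for ECp53KO_172, and a transcript of 5513 bases. Hk2 did not pass the filter and was not tested. The 2 ECp53KO libraries differed from each other by 21.8 times and enclosed both controls. Hk1 held 99.4% ± 0.357 of the FPKM of the 5 hexokinase genes for ECp53KO and 99.5% ± 0.338 for Ctrl (SD over 2 libraries), while Hkdc1 was listed at 0 in every library.

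Phosphofructokinase commits the sugar to glycolysis and consists of liver (Pfkl), muscle (Pfkm) and platelet (Pfkp) subunits. Pfkl (chromosome 10, 77986947 to 78009807) measured 28.4 and 27.5 FPKM with ECp53KO, 23.3 and 19.5 with Ctrl. Averages of 27.9 ± 0.604 and 21.4 ± 2.70 FPKM (SD, n = 2 each) put ECp53KO at 1.31 times Ctrl, and the groups did not overlap. The log2 fold change of 0.38 ± 0.16 (SE) had an unadjusted limma p of 0.0646 and an adjusted p of 0.864, and its 95% interval ran from -0.03 to 0.78. Over 12 alternative analyses it ranged from 0.25 to 0.50 and passed in none of them. Without ECp53KO_170, the library with the highest sums of cardiomyocyte, erythroid and pericyte markers, it was 0.35.

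The make-up of the phosphofructokinase step did not overlap between the groups. The 3 genes together held 70.0 and 67.8 FPKM with ECp53KO, 62.8 and 56.7 with Ctrl. Pfkl held 40.5% and 40.6% of the summed FPKM of the 3 genes in ECp53KO, and 37.1% and 34.3% in Ctrl. Pfkm went the other way, with 16.6% and 16.3% in ECp53KO and 20.1% and 23.2% in Ctrl. Pfkp kept 42.5% to 43.2% in all 4 libraries. The ratio of Pfkl to Pfkm was 2.47 ± 0.0395 for ECp53KO and 1.66 ± 0.255 for Ctrl (SD over 2 libraries), and this difference was not tested. Pfkm itself stood at 11.6 and 11.03 against 12.7 and 13.1 FPKM (limma adjusted p = 0.870), and Pfkp at 29.99 and 29.3 against 26.9 and 24.1 FPKM (limma adjusted p = 0.864).

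**Figure D3:**
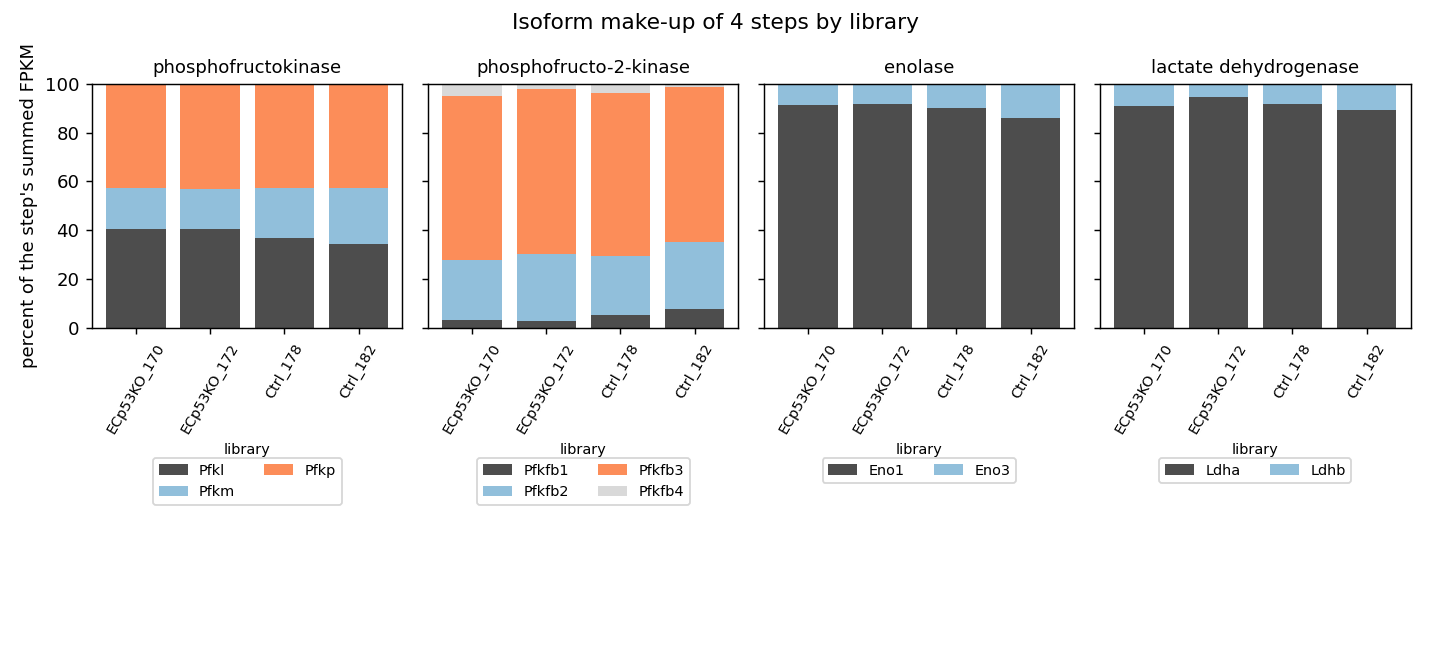
Share of each isoform in the summed FPKM of its step (percent), for 4 steps and the 4 libraries, with genes that hold over 1% in some library. The Pfkl share is 40.5% and 40.6% in ECp53KO against 37.1% and 34.3% in Ctrl, while the Ldha share overlaps between the groups. The Eno1 share is 91.1% and 91.6% against 90.2% and 86.1%, with Eno1b left out of the enolase step.

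Pfkfb3 makes fructose-2,6-bisphosphate, the strongest activator of phosphofructokinase. It lies on chromosome 2 (11471430 to 11554071) and measured 8.94 and 11.01 FPKM with ECp53KO, 10.5 and 10.6 with Ctrl. The controls lay between the ECp53KO values, and the log2 fold change was -0.08 ± 0.17 (SE; limma adjusted p = 0.938). It was the main member of its family in these cells, with 67.2% ± 0.387 of the FPKM of the 4 Pfkfb genes for ECp53KO and 64.8% ± 2.58 for Ctrl (SD over 2 libraries), shares that did not overlap. Pfkfb2, known as the heart form, held between 23.8% and 27.6%. Pfkfb1, the liver form, was listed at 0.477 and 0.487 FPKM with ECp53KO, 0.884 and 1.32 with Ctrl, groups that did not overlap at levels too low for the filter.

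Aldoa, Gapdh and Pgk1 carry the middle of the pathway, from the split of the hexose to the first ATP gained. Aldoa, the aldolase of most tissues (chromosome 7, 126795234 to 126800994), measured 313 and 298 FPKM with ECp53KO, 303 and 275 with Ctrl, with overlapping groups and a log2 fold change of 0.08 ± 0.19 (SE; limma adjusted p = 0.940). It held over 98.9% of the FPKM of the aldolase genes in every library, and Aldoc was listed at 0. Gapdh, the dehydrogenase often used to normalise other transcripts (chromosome 6, 125161852 to 125166467), measured 175 and 134 FPKM with ECp53KO, 159 and 129 with Ctrl (0.09 ± 0.22; limma adjusted p = 0.940). Within each group its values differed by 1.303 and 1.23 times, more than the 1.07 times between the group means. Pgk1, the kinase on the X chromosome (106187100 to 106203699), measured 59.9 and 56.7 FPKM with ECp53KO, 66.9 and 58.0 with Ctrl, a difference in log2 units of -0.09 ± 0.16 (limma adjusted p = 0.917). Its groups overlapped.

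Eno1 and Pkm act near the end, before pyruvate. Eno1, the enolase of most cells (chromosome 4, 150236708 to 150248879), measured 86.1 and 49.9 FPKM with ECp53KO, 67.7 and 49.8 with Ctrl. Among the 9 tested genes it had the widest spread within ECp53KO, 1.73 times between the 2 libraries, and a log2 fold change of 0.17 ± 0.31 (SE; limma adjusted p = 0.928). Eno1 held 91.1% and 91.6% of the summed FPKM of Eno1, Eno2, Eno3 and Eno4 with ECp53KO, 90.2% and 86.1% with Ctrl. The muscle form Eno3 held most of the rest, again without overlap. Eno1b, a near copy of Eno1, was listed at 8.73 FPKM in ECp53KO_172 and at 0.163 FPKM or less in the other 3 libraries, and was looked at after its values were seen. Of the stretches of 51 bases (the read length) in Eno1 transcripts, 48.2% also occur in Eno1b, so how fragments were shared between them is uncertain. The sum of both genes was 86.2 and 58.6 FPKM with ECp53KO, 67.9 and 49.9 with Ctrl, still overlapping. The enolase shares above leave out Eno1b. Were it counted as a gene apart from Eno1, the Eno1 share of ECp53KO_172 would be lower and the groups would overlap. Pkm, the pyruvate kinase gene (chromosome 9, 59656576 to 59679372), measured 187 and 141 FPKM with ECp53KO, 171.9 and 140 with Ctrl, a difference in log2 units of 0.06 ± 0.22 (limma adjusted p = 0.964). Its M1 and M2 splice forms are summed in the gene value and were not told apart.

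Lactate dehydrogenase turns pyruvate into lactate and renews the NAD that glycolysis needs. Ldha, the form that favours this direction (chromosome 7, 46842274 to 46855627), measured 355 and 323 FPKM with ECp53KO, 272 and 256 with Ctrl. Both ECp53KO libraries were above both controls, with means of 339 ± 23.2 and 264 ± 11.3 FPKM (SD, n = 2 each) and 1.28 times the level in ECp53KO. The log2 fold change of 0.36 ± 0.19 (SE) had an unadjusted limma p of 0.114 and an adjusted p of 0.864, with a 95% interval from -0.12 to 0.83. It lay between 0.24 and 0.43 in all 12 alternatives and passed in none. Without ECp53KO_170 it was 0.29. An estimated 5435 to 10461 fragments stood behind each value, with the same doubt for ECp53KO_172. The ratio of Ldha to Gapdh, a common reference, was 2.04 and 2.41 with ECp53KO, 1.72 and 1.98 with Ctrl, again without overlap but with a gap much smaller than the spread within either group.

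Ldhb, the form abundant in heart muscle, measured 35.3 and 18.4 FPKM with ECp53KO, 25.2 and 30.6 with Ctrl. The groups overlapped (limma adjusted p = 0.951), and so did the share of Ldha in the step, at 90.96% and 94.6% in ECp53KO and 91.5% and 89.3% in Ctrl. The ratio of Ldha to Ldhb ran from 10.1 in ECp53KO_170 to 17.6 in ECp53KO_172, a wider range than between the controls (10.8 and 8.37). Ldhb was highest in ECp53KO_170, the library with the highest sum of cardiomyocyte and erythroid markers. Over ECp53KO_172, Ctrl_178 and Ctrl_182 it rose while the sums fell, for cardiomyocytes from 331 to 326 and 307 FPKM. The part of these cells in Ldhb was not tested.

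Several glycolysis genes ordered the libraries in the same way within both groups. Gapdh, Eno1, Pkm, Aldoa and Pgk1 were each higher in both ECp53KO_170 and Ctrl_178 than in either ECp53KO_172 or Ctrl_182. These are 5 of the 9 tested genes, where 18.2% of all tested genes had this order, and 1 of the 9, Pfkfb3, had the opposite order, found in 14.4% of all. Gpi1 (126 and 114 against 105 and 98.5 FPKM) and Tpi1 (60.5 and 48.5 against 43.6 and 42.8 FPKM), enzymes of the intervening steps, followed the same order, but Pgam1 did not. Of the 11 other glycolytic enzymes tested, 3 followed it, Gpi1 and Tpi1 among them, and 1, Pfkfb2, had the opposite order. Xist, the transcript of the inactive X chromosome, was at 0.0230 and 0.0352 FPKM in ECp53KO_170 and Ctrl_178 but at 23.0 and 23.9 FPKM in ECp53KO_172 and Ctrl_182, so the order runs with its level. This order was noticed in the values and carries no test, and what moves with Xist was not tested.

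**Figure D4:**
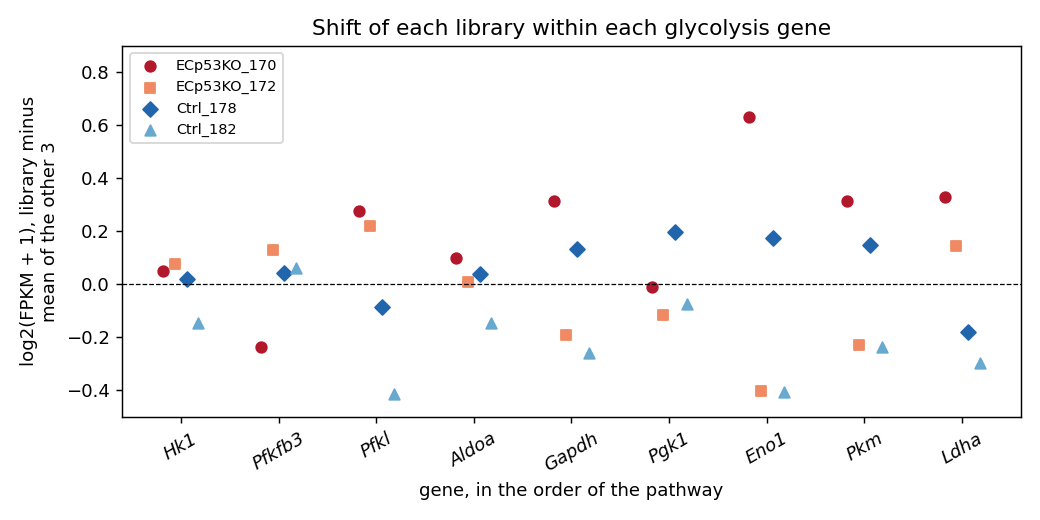
Difference of each library from the mean of the other 3, on the log2(FPKM + 1) scale, for the 9 tested genes. ECp53KO_170 and Ctrl_178 lie above ECp53KO_172 and Ctrl_182 for Gapdh, Eno1, Pkm, Aldoa and Pgk1, while for Pfkl and Ldha both ECp53KO libraries lie above both controls.

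Transcript length and library also moved with these values. ECp53KO_170 was above the mean of the other libraries in 7 of the 9 genes, with a median shift of 0.28 on the log2 scale, and Ctrl_182 was above in 1 of the 9, with a median of -0.24. Over all tested genes the shift of ECp53KO_170 was lower for longer transcripts (Spearman's rho of -0.40 across 11274 genes, which are not independent replicates). The glycolysis genes have a median length of 2432 bases against 3276 over all, by the longest GENCODE transcript of any type. For Gapdh that transcript has 3289 bases, while its coding transcripts hold only 1945 different stretches of 51 bases. Such lengths can therefore exceed those of the coding transcripts. After removal of the trend with length from every library, the median over the 9 genes was 0.08 in place of 0.09, that of Ldha 0.28 and that of Pfkl 0.37. Without ECp53KO_170 the median was 0.05 and without ECp53KO_172 it was 0.27, while without Ctrl_182 it was -0.05. When each library was scaled to the same sum, the median of all genes moved by -0.11 and that of the 9 genes to -0.02, so that relative to all genes it was 0.07 in place of 0.08.

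Some of the genes have near-identical copies, which makes their FPKM uncertain. In Pgk1, 67.9% of the stretches of 51 bases also occur in transcripts of other GENCODE genes, in Gapdh 58.1% (shared among 220 genes, 211 of them pseudogenes), in Eno1 49.3% and in Pkm 23.3%. In Ldha the share was 9.90%, in Aldoa 6.27%, in Hk1 1.62%, in Pfkfb3 0.477%, in Pfkl 0.0266%, and in Hk2 0. Levels set side by side above, such as Gapdh below Ldha, therefore depend on how the authors' software assigned shared reads.

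The other enzymes of the pathway did not pass either. Of 24 further genes for glycolytic enzymes, 11 were tested by limma and 0 passed adjustment or an unadjusted p under 0.05, with a median log2 fold change of 0.11, or -0.10 with libraries scaled to the same sum and -0.02 without ECp53KO_170. The smallest unadjusted p among them belonged to the muscle phosphoglycerate mutase Pgam2, at 4.64 and 3.20 FPKM with ECp53KO, 2.54 and 2.88 with Ctrl (limma adjusted p = 0.864). Pgam1, the main mutase, stood at 67.7 and 56.6 against 56.5 and 56.7 FPKM. Of 12 genes commonly used as references, 11 were positive with a median of 0.12, close to the 0.09 of the glycolysis genes, and 6 were positive with libraries scaled to the same sum. Without ECp53KO_170 their median was 0.01. At the gate into mitochondria, 13 tested genes had a median of 0.09 (-0.05 after the same scaling over 14, and between -0.04 and 0.22 on leaving out a library) and 0 at an unadjusted limma p under 0.05, with the pyruvate carrier Mpc1 at 41.4 and 32.9 against 29.9 and 33.1 FPKM. Pdha1, a subunit of pyruvate dehydrogenase, stood at 36.2 and 29.5 against 29.5 and 29.2 FPKM, and Pdp1, a phosphatase that activates this enzyme, at 5.26 and 3.20 against 4.78 and 5.67 FPKM. In the pentose phosphate pathway and other branches, 25 tested genes had a median of 0.10 (0.0035 after the same scaling and 0.0017 without ECp53KO_170), with 0 at an unadjusted limma p under 0.05. The first enzyme of the pentose phosphate pathway, G6pdx, stood at 12.6 and 8.53 against 7.42 and 8.11 FPKM (limma adjusted p = 0.864). Psph, the last enzyme of serine synthesis, was lower at 4.03 and 3.09 against 5.41 and 5.23 FPKM, and Akr1b3, an aldose reductase, stood at 17.6 and 18.6 against 15.9 and 5.65 FPKM.

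Of the 11 genes of the Slc2a family of sugar transporters, 5 were tested and none passed adjustment. All 5 were lower with ECp53KO without overlap between the groups, as 16.8% of all tested genes were. They belong to a list of 18 transport genes, of which 8 were tested and 2 were lower at an unadjusted limma p under 0.05 (2.82% of all tested genes were). Slc2a1, which encodes the main endothelial glucose transporter GLUT1, measured 8.35 and 8.57 FPKM with ECp53KO, 11.5 and 10.6 with Ctrl, a difference in log2 units of -0.35 ± 0.16 (SE; limma adjusted p = 0.864). Slc2a8 stood at 5.89 and 6.32 against 10.1 and 9.09 FPKM (-0.57 ± 0.16; limma adjusted p = 0.864). Slc2a9, known as a urate transporter, stood at 5.34 and 5.52 against 8.27 and 8.001 FPKM (-0.51 ± 0.16; limma adjusted p = 0.864). Slc2a1, Slc2a8 and Slc2a9 kept their sign in all 12 alternatives. As their groups did not overlap, only rescaling or removal of the length trend could have changed it. Their sign was opposite to that of Ldha and Pfkl. Of the 6 Slc2a genes below the filter, 4 overlapped, Slc2a6 was lower and Slc2a4 higher. Slc2a4, the insulin-responsive transporter of muscle, was at 1.43 and 0.893 against 0.486 and 0.457 FPKM. The lactate exporter gene Slc16a1, outside the naming rule and chosen after its values were seen, was at 2.71 and 1.97 against 1.85 and 1.02 FPKM, and Bsg, its chaperone and likewise chosen, at 320 and 226 against 223 and 208 FPKM, higher in ECp53KO without overlap. Slc16a3, another lactate exporter, was at 1.64 and 1.31 against 2.45 and 1.40 FPKM with overlap, and Slc16a7 and Slc16a8 were listed at 0.130 FPKM or less.

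**Figure D5:**
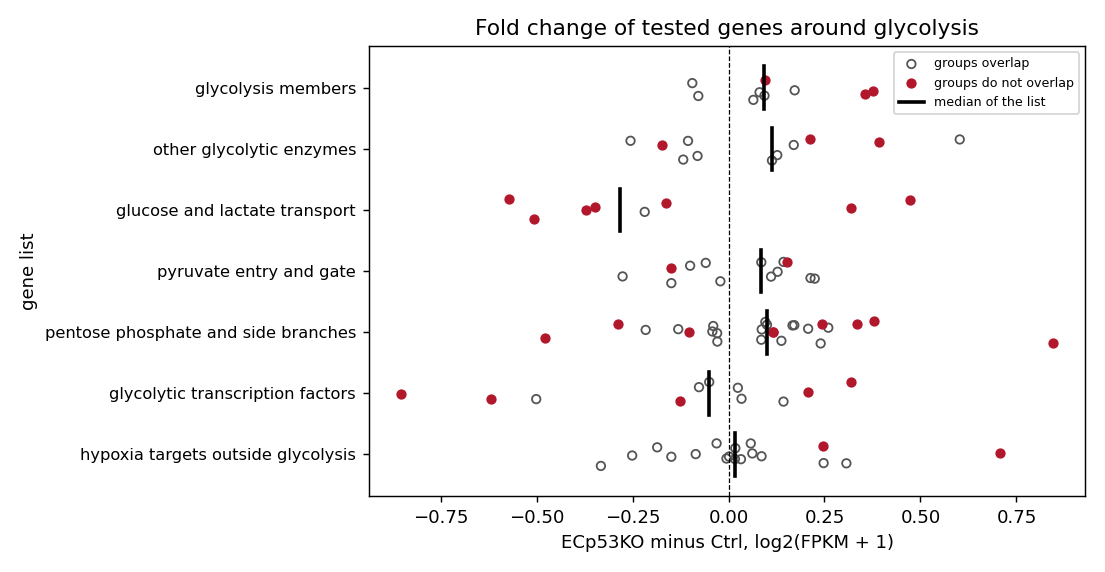
Log2 fold change, ECp53KO minus Ctrl, of each tested gene in 7 lists around glycolysis, on the log2(FPKM + 1) scale, filled where the groups did not overlap and with a bar at the list's median. The glucose and lactate transport list has the lowest median (-0.28), and the 5 lowest filled points in it are Slc2a genes.

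Regulators of glucose use linked to p53 were also read from the same fit. Of 13 tested, 3 were lower at an unadjusted limma p under 0.05 (2.82% of all tested genes were) and 0 were higher or passed adjustment. The median was -0.12, or -0.24 after the same scaling and between -0.34 (without ECp53KO_170) and -0.06 (without Ctrl_182) on leaving out a library. Sesn2, a stress-induced restraint on mTORC1, measured 1.03 and 0.725 FPKM with ECp53KO against 7.02 and 4.50 with Ctrl (limma adjusted p = 0.429). Tsc2, another restraint on mTORC1, stood at 14.9 and 17.5 against 23.9 and 22.3 FPKM, and Cpt1c at 0.377 and 0.831 against 3.57 and 1.499 FPKM (limma adjusted p = 0.864 each). Tigar, the fructose bisphosphatase that p53 is known to induce, was chosen after its values were seen. It measured 3.94 and 3.55 FPKM with ECp53KO against 3.02 and 2.80 with Ctrl (limma adjusted p = 0.864). The log2 fold change was 0.28 ± 0.19 (SE). It was higher with ECp53KO without overlap, as 19.1% of all tested genes were, and the cause was not tested.

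Transcription factors linked to glycolysis, not all of them activators of it, showed no call. Of 11 tested by limma, 0 had an unadjusted p under 0.05 and the median was -0.05. It was -0.17 after the same scaling, -0.19 without ECp53KO_172 and 0.05 without ECp53KO_170 or without Ctrl_182, so its sign depends on these libraries. Myc measured 1.63 and 1.36 FPKM with ECp53KO, 3.56 and 2.22 with Ctrl, and Mlxip, a glucose sensor, at 6.69 and 14.1 against 16.3 and 20.8 FPKM (limma adjusted p = 0.864 each). Mlx, the partner of Mlxip, was higher without overlap, at 27.1 and 26.8 against 18.5 and 24.7 FPKM (limma adjusted p = 0.864). Hypoxia targets outside glycolysis had a median of 0.02 over 18 tested genes (-0.09 after the same scaling), with 1 higher at an unadjusted limma p under 0.05 (1.97% of all tested genes were) and 0 after adjustment. That gene was P4ha1, a collagen prolyl hydroxylase, at 25.2 and 30.01 FPKM with ECp53KO, 17.8 and 15.2 with Ctrl (limma adjusted p = 0.864). Ndrg1 stood at 192 and 192 against 157 and 167 FPKM, and P4ha2, the isoform of P4ha1, at 19.4 and 23.1 against 21.9 and 33.0 FPKM. P4ha1 and Ndrg1 were the 2 of 18 that were higher without overlap, where 19.1% of all tested genes were.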

How the data were processed

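RNA of sorted heart endothelial cells was sequenced in 4 libraries, 2 ECp53KO and 2 Ctrl, grouped by the titles in the labels. Per the labels' protocols, libraries were made from polyadenylated RNA with a kit that keeps no strand. Tools listed in the submitters' processing notes, without roles, are Cufflinks 2.2.1, TopHat2 2.1.0, Trimmomatic 0.36, FastQC 0.11.5 and bcl2fastq 2.17, with the build mm10. The authors deposited FPKM per gene, with the annotation, and how reads with several matches were treated, not given in the sources used here.

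No count test was used, as the unit is no count. Genes averaging 1 FPKM or more entered as log2(FPKM + 1) into limma 3.58.1 in R 4.3.3 (variance trend on mean level, two-sided, Benjamini-Hochberg over all 11332 genes, threshold 0.05, 2 residual degrees of freedom plus 3.15 from the shared variance). The fit was also run on simulated data with changes far larger than those of the glycolysis genes. That run does not show how well differences of the size seen here would be found. For depth, 1 fragment was taken to be the commonest value of FPKM times length among 1063 low genes, searched between 0.03 and 0.15, which gave 11400000, 9800000, 11000000 and 22500000 fragments in ECp53KO_170, ECp53KO_172, Ctrl_178 and Ctrl_182. Both this search range and a wider one were chosen after seeing the data. The wider search gave 5000000 for ECp53KO_172 and the same for the others, which would lower its fragment numbers by 1.98 times. Under it 25.8% of the low values above 0 in that library came to less than 0.75 of a fragment, against 5.15% as used and 3.39% to 4.17% in the others. Symbols were matched to RefSeq's GRCm38.p6 table (23143 by symbol, 1099 by synonym, 104 not matched), and lengths are of the longest GENCODE M21 transcript, coding or not. All 10 genes and their promoters matched. The genes and lists were chosen with earlier results of these data known. Named genes are the 10 genes, their isoforms, Trp53 and from each other list up to 3 genes by smallest p, of which 1 is not reported here. Alternatives changed the pseudocount, filter, scaling, small RNA loci, length trend, shrinkage, an Xist covariate and the libraries used.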

Additional observations from a re-analysis of the deposited data

How the results depend on the processing

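Of the 9 tested glycolysis genes, 0 passed in any of the 12 alternatives. Pfkl and Ldha were the ones whose sign did not change in any. Their groups did not overlap, so only rescaling or removal of the length trend could have changed it. The library numbers give no pairing, as none occurs in both groups, and the main fit used no pairs. A fit with a term for Xist level (above 1 FPKM or not), which sets ECp53KO_170 beside Ctrl_178 and ECp53KO_172 beside Ctrl_182 by a measured level and not by a label, called 0 of the 9 genes. Leaving out each library in turn moved the median fold change of the genes from 0.09 to between -0.045 and 0.27, and gave ranges of -0.22 to 0.058 for Pfkfb3, -0.20 to 0.0068 for Pgk1, -0.10 to 0.28 for Gapdh, -0.22 to 0.56 for Eno1 and -0.14 to 0.27 for Pkm. It gave -0.28 to 0.068 for Pfkfb2, -0.017 to 0.24 for Gpi1, -0.062 to 0.40 for Tpi1, -0.56 to 0.012 for Pdp1, -0.64 to 0.13 for Eno3 and -0.57 to 0.34 for Ldhb. Rescaled to TPM, the median was -0.022, Hk1 -0.020, Aldoa -0.035, Gapdh -0.022, Pkm -0.051 and Gpi1 -0.0025. Rescaled without small RNA loci, the median was -0.013, Hk1 -0.011, Aldoa -0.026, Gapdh -0.013 and Pkm -0.042. With the length trend removed Aldoa was -0.017. The cause of these changes of sign was not tested. Over all genes 3 were higher and 10 lower. Higher genes were 5 with a pseudocount of 0.1, 1 with no filter, 5 with robust shrinkage and 1 to 21 on leaving out a library. Lower genes were 4 without small RNA loci, 4 when also rescaled, and 12 to 58 on leaving out a library. The limma adjusted p of Trp53 was 0.146 and ran from 0.0127 to 0.620 over the alternatives. Hk2 rests on an estimated 0.966 to 18.1 fragments a library.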
